A study of Zea mays with 32 samples.

Results

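In maize (Zea mays) roots cut from the tip backwards into 16 slices, 254 genes were high in slices 2 to 4 and low at both ends, in slice 1 and in slices 13 to 16. They were chosen by their levels in CPM, the counts of a gene per 1000000 counts of its library, with each slice taken as the mean of its 2 libraries. A gene had to hold a mean of at least 50 CPM over slices 2 to 4 (called its front mean here), at most 1/8 of that mean in slice 1, at most 1/8 of it over slices 13 to 16 (the back), and at least 1 count at the back. Of 39510 identifiers in the table, 39336 of the Zm00001d series were eligible and 4091 reached the front mean of 50 CPM; the members are 6.21% of these front genes. A group of 346 front genes was low in slice 1 only, 259 were low at the back only, 3225 were low at neither end, and 7 were low at both ends with no count at the back.

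The libraries come from 2 roots, B and A, of the wild-type maize line B73, harvested at 7 DAG (days after germination). Plantlets stood on germination paper in a chamber at 26 °C under a 12 h light period. Both were aligned, pinned and cut by hand in 1 pass, so each slice has 1 library of each root (n = 2). No treatment or second genotype was compared: the only axis is the distance from the tip, and each side of a comparison between roots is 1 root. The 32 libraries held 1008082 to 5681180 counts (median 1860465); per the labels an amplifying cDNA kit (Ovation RNA-Seq System V2) was used. Slice 8 of root A stood apart, with 8303 genes that had a count against at least 13804 in every other library. The 2 libraries of slice 7 were unusually alike: their correlation over the members was 0.987, against 0.486 to 0.918 in the other slices. The counts of members called are given with and without these libraries; the split of the members by where they decline leaves out slice 8 but rests on slice 7.

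In a growing root a cap covers the tip, the meristem just behind it holds the dividing cells, and cells that leave the meristem first elongate and then differentiate. Genes for DNA replication, mitosis and cytokinesis are known to be active where cells divide and to be shut down as cells elongate. The cap and the mature root both consist largely of cells that no longer divide, which gives a pattern low at both ends its interest. The labels assign no slice to a zone. The 254 members could not be paired with gene names: 0 of them matched the reference table of 49888 maize genes. Meristem markers could therefore not be used to check whether slices 2 to 4 hold the dividing region, no role is given to any member, and the members are described as a group, by rank and through 2 identifiers.

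The values that chose the members are given first, as a description with no test. Front means ran from 50.1 to 1674 CPM with a median of 101 CPM; 125 members were under 100 CPM and 59 reached 200 CPM. The median member held 4.57% of its front mean in slice 1 and 6.14% at the back. The low ends did not have the same depth: slice 1 was lower than the back, relative to the front, in 171 members and the back was lower in 83. In slice 1, 36 members had no count in either root. At the back the members held 1 to 3677 counts each (median 117.5), and 26 of them had fewer than 10. Near the limits, the lowest member stood at 50.1 CPM and the nearest gene outside at 49.8 CPM. The member closest to the slice 1 limit held 12.47% of its front mean there, against 12.51% in the nearest gene outside, and at the back these values were 12.43% and 12.51%. With CPM scaled by edgeR's TMM factors, which allow for a different make-up of the libraries, 154 of the 254 met the rule.

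The members together took 4.73% of all counts in slice 3 of root B and 4.84% in slice 3 of root A, and 4.46% and 4.91% in slice 4 of roots B and A. In slice 1 their share was 0.267% in root B and 0.173% in root A. Slice 2 was intermediate, at 2.88% in root B and 3.49% in root A. Between slices 5 and 11 the share was lower in each slice than in the one before in root B, and also in root A. In root B it was 4.15% in slice 5, 3.28% in slice 6, 2.39% in slice 7, 0.732% in slice 9 and 0.294% in slice 12. In root A the same slices held 4.65%, 3.97%, 2.36%, 0.706% and 0.286%. The roots lay close to each other in these slices. In slice 8 they were apart, at 1.34% in root B and 0.757% in root A. In these bulk samples fewer cells that express a gene and less RNA of it per cell cannot be told apart.

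**Figure D1:**
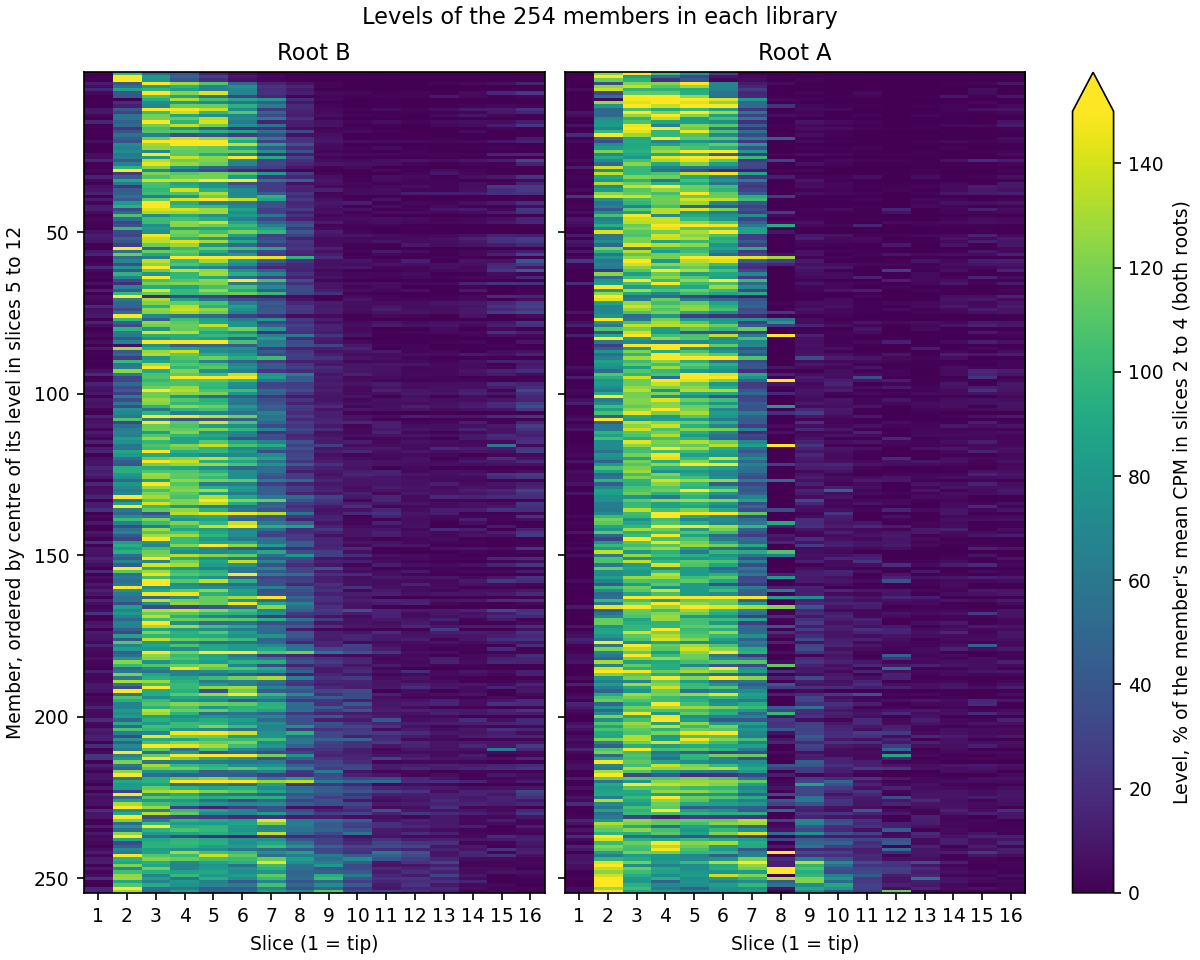
Each row is 1 of the 254 members and each column 1 slice, in root B (left) and root A (right); colour gives the CPM as a percentage of the member's mean in slices 2 to 4 over both roots, capped at 150%, and rows are ordered by the centre of the level in slices 5 to 12 without slice 8. The bright block covers slices 2 to 6 and ends in slices 7 to 9 in most rows; the column of slice 8 of root A, where 138 members have no count, is mostly dark.

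Within the front the members did not all peak together. By the mean of the roots, 45 members were highest in slice 2, 84 in slice 3, 70 in slice 4, 27 in slice 5, 15 in slice 6, 7 in slice 7 and 6 in slice 8. All 6 peaks in slice 8 came from the library of root A that stood apart, since 0 members were highest in slice 8 of root B. The median member rose from 5.23% of its front mean in slice 1 to 63.7% in slice 2 of root B, and from 1.01% to 79.7% in root A. Front genes low in slice 1 only had medians of 69.6% and 72.6% in slice 2 of roots B and A. Slice 2 was below both slice 3 and slice 4 in 177 members in root B and 160 in root A. That is 69.7% and 63% of the members, beside 55.6% and 53.5% of all front genes in the same roots.

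The member of highest level shows the common course. In slices 2 to 4 it held 835 CPM in its lowest library, with a median of 1826 CPM and 2129 CPM in its highest (6 libraries), and in slice 1 it held 40.4 CPM in root B and 5.70 CPM in root A. The gap to slice 1 follows from the rule that chose this member and carries no test. In slices 5 to 8 it ran from 33.2 CPM in slice 8 of root A, with 279 CPM the next lowest, through a median of 916 CPM to 1913 CPM. In slices 9 to 12 it held 28 to 187 CPM, with a median of 89.3 CPM (log2 change −2.87 ± 0.35 SE; edgeR, adjusted p = 2.99e-07). Without slice 8 of root A, these 2 blocks of libraries did not overlap. In slices 13 to 16 it was at 61.9 to 449 CPM (median 147 CPM), with its highest value in slice 16 of root B.

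The question that the rule does not answer is where behind slice 4 the members fall, since slices 5 to 12 played no part in it. A fall somewhere between slices 4 and 13 follows from the choice itself. Each member's level was set against its own level in slice 5. In root B the median member kept 82.6% of its slice 5 level in slice 6, 56.1% in slice 7, 28.7% in slice 8, 13.6% in slice 9, 7.71% in slice 10 and 5.42% in slice 12. In root A it kept 87.4% in slice 6, 52.3% in slice 7, 8.95% in slice 9, 6.32% in slice 10 and 1.97% in slice 12. The median fell below 50% between slices 7 and 8 in root B and below 50% by slice 9 at the latest in root A, where slice 8 is not a usable value. Among the 3225 front genes low at neither end, the median in slice 9 was 79.5% of slice 5 in root B and 77.5% in root A.

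**Figure D2:**
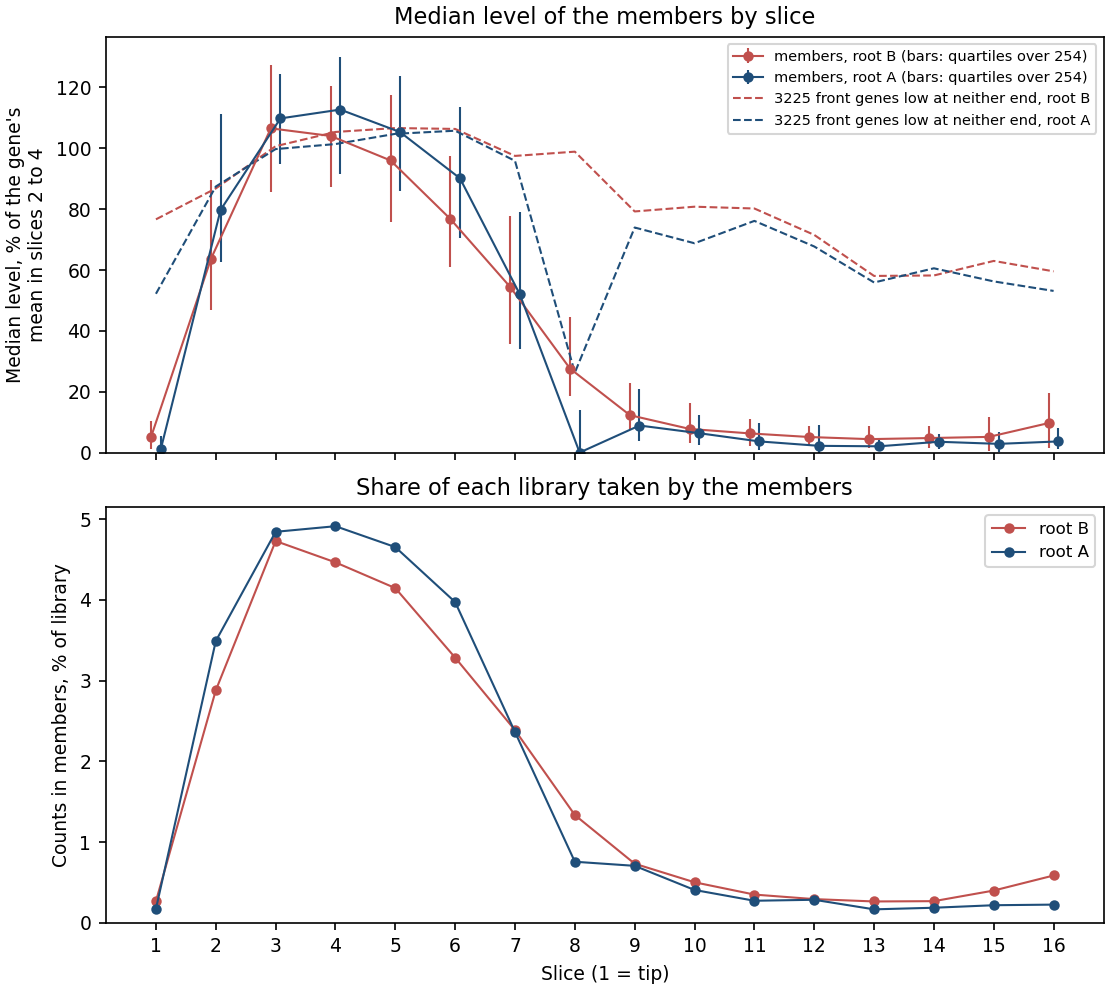
Upper plot: median level per library as a percentage of each gene's mean in slices 2 to 4, by slice, for the 254 members (points, with quartiles over members as bars) and for 3225 front genes low at neither end (dashed), in root B and root A. Lower plot: percentage of each library's counts that fell in the members; both plots are highest in slices 3 to 5 and the members are near the floor from slice 9 on, with a higher value in slice 16 of root B (0.586% of counts) than in slice 16 of root A (0.226%).

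Nearly all members were lower in slices 9 to 12 than in slices 5 to 8. By edgeR's quasi-likelihood test over the whole table, with Benjamini-Hochberg adjustment and a call at an adjusted p under 0.05, 247 of 254 members were lower and 0 higher. Of all 19587 genes tested, 21.1% were lower and 22% higher, 43.1% in all. The median change of the members was −2.73 (log2), with the 10th and 90th percentiles at −5.44 and −1.48, and that of all genes tested was 0.01. From the pooled counts of each block, with 3 counts over the block as a floor for the 1 member that had none in slices 9 to 12, the median was −3.08, or 11.8% of the slices 5 to 8 level. By these pooled counts every one of the 254 members was lower. By mean log2 CPM (prior count 2) 254 members were lower in root B and 249 in root A. The pooled counts and these means were taken for the members only, so they have no share of all genes beside them. By the sign of edgeR's fitted change, 253 members were lower, beside 9619 of all 19587 genes tested. A fall before the back is built into the rule, so counts near 254 may in part follow from the choice of members. The count of calls moved with 1 library: without slice 8 of root B, which leaves slice 8 to the library that stood apart, 97 members were called lower. In that fit the whole table moved, with 26.1% of all genes higher and 7.52% lower and a median change of 0.84 (log2) over all genes, and the members' median was −1.56. Without slice 8 of root A, 249 were called, and 247 without slices 1, 8 and 12 of root A, the 3 libraries with the fewest genes. With slices 5 and 6 alone in place of slices 5 to 8, which leaves out the slices that stood apart, 249 were called. The last 2 of these settings were chosen after the data had been seen. The fits with 249, 247 and 249 members called 43%, 44.5% and 44.4% of all genes.

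The members that were not called were of 2 kinds. Of the 7, 2 were already low before slice 9, with 0.219 and 0 CPM on average over slices 9 to 12, against 8.02 and 12.2 CPM over slices 5 to 8, and had too few counts for a usable error. The other 5 had changes between −0.9 and 0.02 (log2) and adjusted p from 0.0534 to 1 (edgeR). The member with the smallest change held 19.3 to 105 CPM in slices 9 to 12, with a median of 32.8 CPM, against 0.949 CPM in slice 8 of root A and 44.8 to 78 CPM in the other libraries of slices 5 to 8. These ranges overlapped, and the member then dropped to a median of 0.608 CPM in slices 13 to 16.

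A rule on size, direction and adjusted p picked the members given by identifier, and 240 members met it as lower and 0 as higher. It was applied to the members only, so these counts have no share of all genes beside them. By adjusted p alone, 21.1% of all genes tested were lower and 22% higher in the same comparison (edgeR). The largest fitted fall was that of Zm00001d038382. It had no count in slice 1 and rather few in slice 2, with 1.76 CPM in root B and 14.9 CPM in root A. In slices 3, 4 and 5 it held 305, 434 and 347 CPM in root B and 487, 728 and 986 CPM in root A. It was higher in root A than in root B in all 3 slices, with its highest level in slice 4 of root B and in slice 5 of root A. Slice 7 still held 266 CPM in root B and 265 CPM in root A, and slice 9 held 10.2 and 7.72 CPM. The 6 libraries of slices 10 to 12 held none of its counts. Slices 9 to 12 together had 52 counts of 28052266, against 5146 of 15529272 in slices 5 to 8, so that 0.559% of the earlier level was kept (95% Clopper-Pearson interval from counting error alone 0.417% to 0.735%). The fitted change was −10.01 ± 0.6 (log2, SE; edgeR, adjusted p = 6.1e-13). It averages slices with no count and is no measure of a fold.

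Zm00001d017718 had a similar course at a lower level. It was absent from the counts of slice 1, and over slices 2 to 4 it ran from 21.1 CPM through a median of 111 CPM to 168 CPM. In slices 5 to 8 it held 0 CPM in slice 8 of root A, 10.4 CPM in slice 8 of root B, a median of 57.5 CPM and at most 153 CPM. In slices 9 to 12 it had 3 counts, all in slice 9 of root B, against 1016 in slices 5 to 8. The level kept was 0.164% with a counting interval of 0.0337% to 0.479%, and the fitted change was −8.63 ± 0.89 (log2, SE; edgeR, adjusted p = 1.25e-08). Apart from slice 8 of root A, its libraries in these blocks did not overlap. Without slice 8 of root B, the change of −6.92 was no longer called. At the back its 16 counts all came from slice 15 of root A, at 4.23 CPM.

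The fall was spread over several steps. In slices 7 and 8 against slices 5 and 6, 79 of 254 members were called lower and 0 higher, where 1.35% of all genes tested were lower and 2.76% higher (4.1% in all). With DESeq2's size factors in place of TMM, this split over all genes was 505 higher and 445 lower, against 540 higher and 264 lower, and 107 members were lower and 0 higher. In slices 9 and 10 against slices 7 and 8, 102 members were lower and 0 higher, beside 3.47% and 5.68% of all genes (9.15% in all). In slices 11 and 12 against slices 9 and 10, 33 members were lower and 0 higher, beside 1.66% and 1.42% of all genes (3.08% in all). The median changes of the members were −1.39, −1.52 and −0.94 (log2) in the 3 steps, and those of all genes tested −0.11, 0.09 and −0.04. With pooled counts and the floor of 3 counts the members' medians were −1.15, −1.91 and −1.01. The last step rests on few counts: 9 members had none in slices 11 and 12 and 2 had none in slices 9 and 10. In a joint test over slices 5 to 12, 247 members varied, beside 36.1% of all genes tested.

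In a fit with 1 library left out, the filter also kept other genes, for example 21170 without slice 4 of root A against 19587 in the main fit. A count there therefore does not rest on the dropped library alone. The counts per step moved when single libraries were left out and with the way edgeR estimates the dispersion. With its older estimate 19, 65 and 10 members were lower in the 3 steps, and 2.11%, 5.53% and 0.771% of all genes were called. For slices 7 and 8 against slices 5 and 6, leaving out the library of slice 5, 6, 7 or 8 gave 45, 48, 20 and 186 calls in root B and 22, 18, 15 and 52 in root A. Over all genes the fit without slice 8 of root B called 22.2%, with 7.01% higher and 15.2% lower, and the other 7 of these fits called 0.945% to 1.84%. Treating the libraries of slice 7 as 1 sample gave 22 members, beside 1.6% of all genes. For slices 9 and 10 against slices 7 and 8, the count was 67, 59 and 58 when slice 7, 8 or 10 of root B was dropped, 61 when slice 9 of root A was, and 170 when slices 1, 8 and 12 of root A were. For slices 11 and 12 against slices 9 and 10, dropping slice 8, 9, 10, 11 or 12 gave 55, 16, 10, 10 and 56 calls in root B, and dropping slice 8, 9, 11 or 12 gave 56, 14, 17 and 5 in root A. When slice 8 of root B was dropped, 3 of the 186 and 6 of the 59 calls were higher, and in the other fits named here 0 members were called higher. Calls over all genes moved in the last step as well. They were 7.05%, 1.17%, 0.737%, 1.1% and 8.26% in the fits named for root B, in the order given. In those for root A they were 7%, 0.842%, 1.22% and 0.63%. For slices 9 and 10 against slices 7 and 8, the fit without slice 8 of root B called 23% of all genes, 17.4% higher and 5.53% lower, with a median change of 1.88 (log2) over all genes and 0.64 over the members. In this step the fits without slice 7 or 10 of root B called 3.13% and 5.21% of all genes. The fit without slice 9 of root A called 4.06%, and that without slices 1, 8 and 12 of root A 12.8%.

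**Figure D3:**
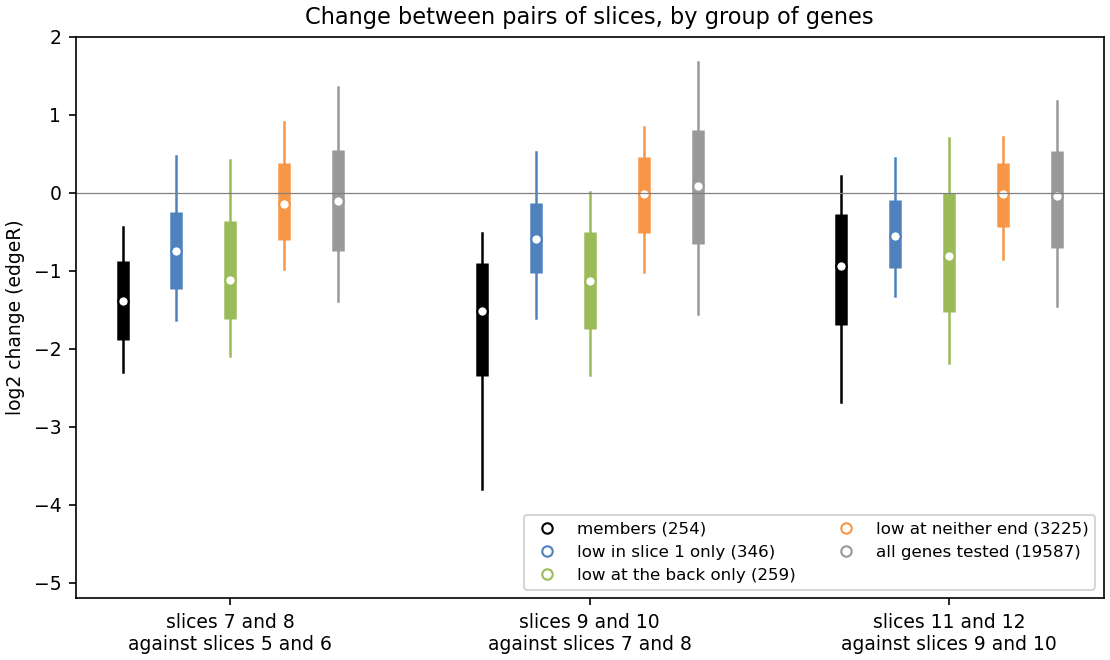
Log2 change (edgeR) between pairs of slices for the 254 members, for 346 front genes low in slice 1 only, 259 low at the back only and 3225 low at neither end, and for all 19587 genes tested; circles are medians, thick bars quartiles and thin bars the 10th to 90th percentiles over genes. The members' medians are −1.39, −1.52 and −0.94 in the 3 steps, below those of the other groups in each.

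Set beside the front genes that were low at 1 end only, the members had the larger changes in slices 5 to 12. In slices 9 to 12 against slices 5 to 8 the median change was −2.73 (log2) in members, −2.05 in front genes low at the back only and −1.32 in those low in slice 1 only; it was −0.06 in those low at neither end. The shares called lower were 97.2%, 79.9%, 73.7% and 26.9%, in the same order. Front genes low in slice 1 only were thus also lower in slices 9 to 12 than in slices 5 to 8 in most cases. Their choice did not ask for it, and 7.8% of them were called higher. With slices 5 and 6 alone in place of slices 5 to 8, the medians were −3.5, −2.56, −1.69 and −0.1 and the shares called lower 98%, 79.9%, 75.7% and 29.3%, in that order; this setting was chosen after the data had been seen. These lists were chosen by level at the ends, and the differences between them were not tested.

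The members differed in how far back they kept over 50% of their slice 5 level, which does not mark where a decline began. With slice 8 left aside, 117 members first reached 50% of their slice 5 level or less by slice 7, 115 first did so in slice 9 and 22 in slices 10 to 12. In the first class 97 of 117 members were highest in slice 3 or 4, and the class median was 66.3% of the front mean in slice 2, 119% in slice 3, 103% in slice 5, 35% in slice 7 and 7.87% in slice 9. In the class that followed in slice 9 the median was 81.9% in slice 2, 108% in slice 5, 71.7% in slice 7 and 17.4% in slice 9. The 22 late members, so called by this measure only, had another shape. Their median was highest in slice 2, at 130%, stood near 80% in slices 4 and 5, and was at 90.7% in slice 7, 60.3% in slice 9, 37% in slice 10 and 11.8% in slice 12; 13 of them were highest in slice 2. The member of highest level among them held 8.04 CPM in slice 12 of root B and 3.87 CPM in slice 12 of root A, after 83.9 and 120 CPM in slice 9 and 168 and 202 CPM in slice 7 of roots B and A (log2 change −2.01 ± 0.37 SE for slices 9 to 12 against slices 5 to 8; edgeR, adjusted p = 4.63e-05). Front means were similar, with medians of 108, 95.3 and 108 CPM in the 3 classes. The classes were formed on slices 5 to 12 themselves, so their medians there carry no test.

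The roots placed most members in the same class: 92 members were in the first class in each root, 87 in the class of slice 9 in each and 14 in the class of slices 10 to 12 in each, which makes 193 of 254 (76%). A single jump over a class was seen, in 1 member that was in the last class in root B and in the first in root A. The change of slices 9 and 10 against slices 5 and 6, on the log2 (CPM + 1) scale, had a median of −2.99 in root B and −3.43 in root A, and its correlation across members between the roots was 0.824 (Pearson) and 0.792 (Spearman, n = 254 members). Over the 59 members of at least 200 CPM the values were 0.878 and 0.864. Over all 4091 front genes they were 0.939 and 0.943. All members were read from the same libraries, so these values describe likeness only.

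**Figure D4:**
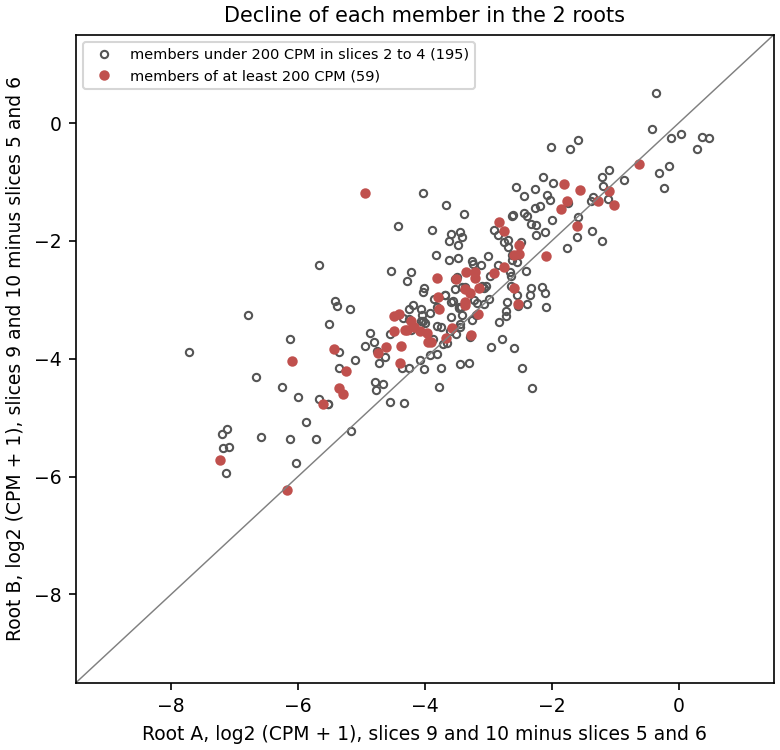
Each point is 1 member; the axes give the change of slices 9 and 10 against slices 5 and 6 in root B (vertical) and root A (horizontal) as a difference of log2 (CPM + 1), and the line marks equal change. Points follow the line (Pearson 0.824, n = 254), and the 59 members of at least 200 CPM are filled.

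Differences between the roots were few among the members. Over slices 5 to 12, with slice in the model, 1 member differed, lower in root B; of 18147 genes tested, 0.942% were lower and 0.827% higher in root B (1.77% in all). This member, singled out after its values were seen, held 133 and 152 CPM in slices 5 and 6 of root B and 346 and 484 CPM in the same slices of root A, with 387 and 398 CPM in slice 7 of roots B and A (log2 difference −1.67 ± 0.4 SE; edgeR, adjusted p = 0.0273). The count rested on the libraries used. It was 0 when any one library of slices 5, 6, 9, 10, 11 or 12 was dropped, 6 when slice 8 of root B or of root A was, and 0 with the older dispersion estimate. All 6 were lower in root B in each case, where 3.83% and 3.82% of all genes were called, and the older estimate called 0.248% of all genes. DESeq2 called 7 members, 4 higher and 3 lower in root B, beside 2.65% of all genes. Whether the fall behind slice 8 differed in size between the roots was tested as well: edgeR and DESeq2 each called 0 members, with 16 and 19 members at an unadjusted p under 0.05, and edgeR called 0 of all 18147 genes (0%). With the library of slice 8 of root B or of root A dropped, edgeR again called 0 members, but 48 were at an unadjusted p under 0.05 in either case, and 62 were with slices 1, 8 and 12 of root A dropped. Over all genes DESeq2 had 774 of 18147 at that limit. The 62 members have no such number beside them here, so they cannot be set against all genes. Among all genes edgeR had 695 of 18147 at the same limit in the main fit. It had 1124 of 19667 without slice 8 of root B and 1123 of 19640 without that of root A. The members' median difference (log2) was 0.42, 0.61 and 0.62 in these fits, against −0.05, 0.1 and 0.12 over all genes. Each side of these comparisons is 1 root, and on simulated data of this size 17.9% of 4-fold differences of that kind were called.

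Behind slice 12 the members did not stay at 1 level. Their summed level was 2647 CPM in slice 13, 2684 CPM in slice 14, 3999 CPM in slice 15 and 5862 CPM in slice 16 of root B, and 1670, 1869, 2180 and 2256 CPM in the same slices of root A. In each root the sum was higher in slice 16 than in slice 13, and root B was above root A in each slice. Without the 10 members of highest level, root B held 4116 CPM in slice 16 against 2056 CPM in slice 13, and root A held 1707 CPM against 1341 CPM. In slice 16, 111 members were above 1/8 of their front mean in root B and 10 in root A. The number higher in slice 16 than in slice 13 was 167 in root B and 151 in root A, which is 65.7% and 59.4% of the members, beside 58.5% and 47.9% of all front genes. These slices entered the rule through their mean, so the values are given as a description.

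Most members of the first class were higher in slice 16 than in slice 13. In the class that reached 50% by slice 7, the median was 4.12, 6.31, 9.07 and 16.4% of the front mean in slices 13, 14, 15 and 16 of root B, and 1.74, 3.77, 4.11 and 6.26% in root A; 102 of 117 members were higher in slice 16 than in slice 13 in root B and 93 in root A. In the class of slice 9 the numbers were 63 and 56 of 115. Most of the 22 late members were lower in slice 16 than in slice 13, and 2 of 22 were higher in each root. Their medians were 2.13% in slice 16 against 12.5% in slice 13 of root B, and 1.72% against 12.4% in root A. The member rule limited the mean of slices 13 to 16, and these medians in slice 13 were already near that limit. A rise to slice 16 was thus restricted by the choice of members, so the contrast cannot be read as a trait of the late class. Front genes that are not members were split by the same measure. Of the 375 that reached 50% by slice 7, 82.4% were higher in slice 16 than in slice 13 of root B and 74.4% in root A. Of the 571 that first reached it in slices 10 to 12, 53.8% and 42.4% were higher. Of the 1061 that first reached it at slice 9, 88% were higher in root B, the highest of these shares in that root, and 63% in root A. Neither the difference between the classes nor its cause was tested, and slice 16 of root B, which carries the higher values, is 1 library.

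**Figure D5:**
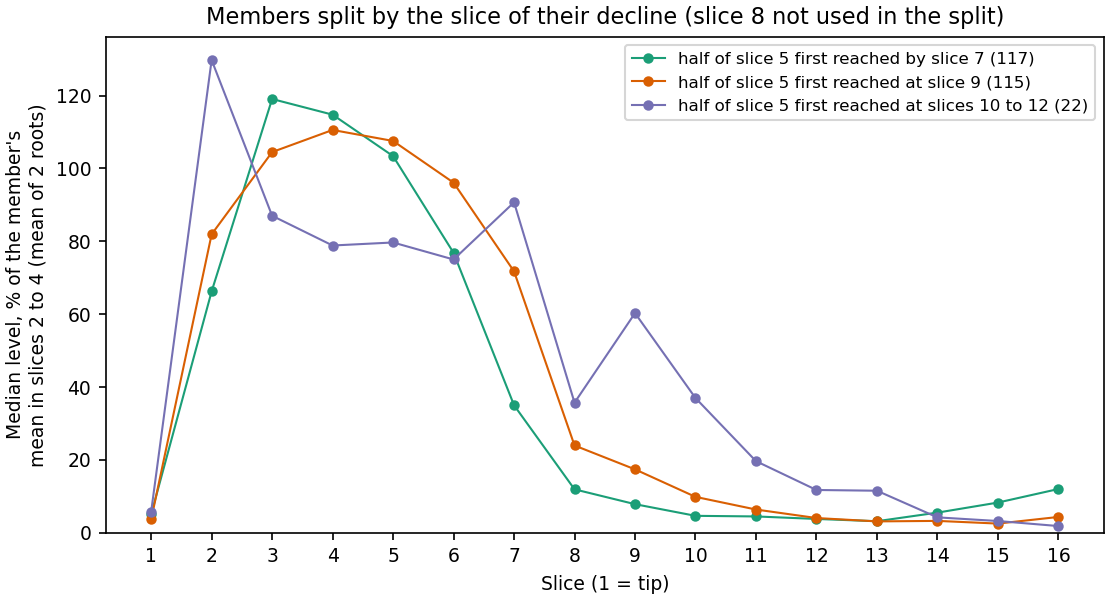
Median level by slice, as a percentage of each member's mean in slices 2 to 4 over both roots, for the 117, 115 and 22 members that first reached 50% of their slice 5 level by slice 7, at slice 9 and at slices 10 to 12 (slice 8 not used in the split). Behind slice 4 the first class falls to 3.19% in slice 13 and stands at 12% in slice 16; the late class is highest in slice 2, at 130%, and lowest in slice 16, at 1.86%.

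Zeros show where the libraries limit these values. In each library of slices 2 to 6 every member had a count, beside 0.0244% to 0.636% of all front genes at 0. In slices 2 to 4 the minimum of 50 CPM in the rule favours this. In slice 8, 2 members had none in root B and 138 (54.3%) in root A, and 122 of the members at 0 in root A had a count again in slice 9 of that root. Among all front genes, 0.66% were at 0 in slice 8 of root B and 25.7% in slice 8 of root A. In slice 1, 48 members were at 0 in root B and 107 in root A, beside 2.08% and 7.41% of all front genes, so the library with fewer genes also had the lower members there. At the back, 23 to 57 members were at 0 in the libraries of root B and 27 to 63 in those of root A. Of all front genes, 1.69% to 3.1% were at 0 there in root B and 1.93% to 3.32% in root A. The rule asked for low levels of the members in these slices.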

How the data were processed

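The authors deposited 1 table of whole-number counts for 39510 identifiers in 32 RNA-seq libraries. The tools named per the submitters' processing notes are kallisto 0.43, DESeq2 and Trimmomatic, without roles. The sources used here do not give the genome build, annotation, strand setting or how the deposited counts became whole. How reads shared by near-identical genes were assigned is not stated either. No molecular identifiers are mentioned, so intervals cover counting error only.

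Members and lists were chosen with earlier results of these data known. CPM is the count over the column total, scaled as in the report. Tests used edgeR 4.0.16 in R 4.3.3 on the whole table: TMM scaling, filterByExpr by slice (minimum count 10, total 15; 19587 genes, all 254 members among them), 16 slices as groups, robust quasi-likelihood fit with the newer dispersion step. Root tests used the 16 libraries of slices 5 to 12 with slice in the model (18147 genes). The SE is the change over the square root of F. Adjusted p-values are Benjamini-Hochberg over all genes tested. Libraries with the same letter come from 1 root per the labels, which pairs them. Deviations of slices of a root correlated with a median of 0.143 over 120 pairs, from −0.02 to 0.376, and 116 pairs were above 0. The main fit leaves the root out, and the root block is an alternative. With 2 roots cut in 1 pass, p-values measure the spread between these 2 roots only. Members named by identifier had to pass the adjusted threshold of 0.05, change by 1 or more on the log2 scale and move one way in both roots; the 2 largest falls and rises among them were taken. With no gene names, the other parts of the naming rule and the role lists could not be applied. On simulated counts (18627 genes) for slices 9 to 12 against slices 5 to 8, the test called 31.3% of the genes changed 2-fold, 92.5% at 4-fold and 98.5% at 8-fold, and 38 of 186 calls were false; with the older dispersion step (18595 genes) 7 of 153 were false. Each simulated gene had 1 mean level over all slices before changes were added to a part of the genes above a minimum level. The simulated spread was estimated without slice 8 of root A. These rates may therefore not hold for genes that decline along the root or for fits with that library. Alternatives were DESeq2 1.42.0, its size factors in edgeR, no filter, the older step, a root block, slice 7 counted as 1, libraries left out and other limits in the member rule. With a library left out the filter was run anew, so the genes tested changed as well.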

Additional observations from a re-analysis of the deposited data

How the results depend on the processing

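The membership moved with the scaling. With TMM-scaled CPM, whose factors were 1.15 to 1.25 in slices 2 to 4 and 0.832 to 0.91 at the back, 154 of the 254 genes met the rule and no others. A ratio of 1/4 gave 839 members and 1/16 gave 102, a minimum of 20 CPM gave 498 and of 100 CPM 129, and root A alone gave 427 (225 shared). Root B alone gave 192 (145 shared), and leaving out 1 library of slices 1 to 4 or 13 to 16 gave 220 to 303.

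Leaving out 1 library at a time, the members called ran from 97 to 249 in slices 9 to 12 against slices 5 to 8, 15 to 186 in slices 7 and 8 against slices 5 and 6, 58 to 139 in slices 9 and 10 against slices 7 and 8, 5 to 56 in slices 11 and 12 against slices 9 and 10, 236 to 254 in the joint test, 0 to 6 between the roots and 0 to 0 for the difference in change. The older dispersion step gave 238, 19, 65, 10, 216, 0 and 0, in that order. Of all genes it called 36.6%, 2.11%, 5.53%, 0.771%, 21.7%, 0.248% and 0%. Among the fits with 1 library left out, those with 97 and 249 members called 33.6% and 43% of all genes. Those with 15 and 186 called 1.29% and 22.2%, and those with 58 and 139 called 5.21% and 8.01%. In the joint test those with 236 and 254 called 28.4% and 51.2%. Slice 7 counted as 1 gave 22 in slices 7 and 8 against slices 5 and 6, and leaving out slices 1, 8 and 12 of root A gave 170 in slices 9 and 10 against slices 7 and 8. Of all genes, 1.6% and 12.8% were called in these fits, in the same order. Between the roots DESeq2 called 7 members, leaving out slices 1, 8 and 12 of root A gave 11 and leaving out slice 8 gave 6. The shares of all genes called between the roots were 2.65%, 3.88% and 4.15%, in that order. With the root letter as a replicate block the first 5 counts were 249, 113, 120, 43 and 250, and the block moved none of them by over 1.5 times. The shares of all genes called with the block were 46%, 6.25%, 11.6%, 4.98% and 41.9%. In the main fit they were 43.1%, 4.1%, 9.15%, 3.08% and 36.1%. The change of Zm00001d017718 was −6.92 and not called without slice 8 of root B. With DESeq2's size factors the median of all genes in slices 9 to 12 against slices 5 to 8 was −0.14, against 0.01 with TMM, and the members' median was −2.89. Slice 7 counted as 1 was not run for the root tests, since the sum belongs to no root. The causes were not tested.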

Other observations

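Across the 254 members, the percentage of the front mean in slice 1 and that at the back had a Spearman correlation of 0.467. It is a description only, since the rule used both and both are divided by the same front mean. By the root alone, 145 members met the rule in root B and 225 in root A, and 128 met it in each. In slice 1, 39 members were above 1/8 of their front mean in root B and 14 in root A.

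Identifiers with consecutive numbers were few: 9 members (3.54%) had a neighbour in number among the members, in 5 pairs. The values were 10 genes (2.89%) among the 346 front genes low in slice 1 only and 17 (6.56%) among the 259 low at the back only.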
